A study of Mus musculus with 48 samples.

Results

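The genes described here are the NMDA receptor subunit genes Grin1, Grin2a, Grin2b, Grin2c, Grin2d and Grin3a, with the exon bins of Grin1, in mouse striatum. The 6 genes were taken by symbol from a table of 23420 genes, and the 42 Grin1 bins by Ensembl identifier from a table of 368092 exon bins. Each bin is a piece of exon that 1 fixed set of annotated transcripts covers. All 6 genes and 33 of the 42 bins had enough counts to be tested, and the other 9 bins held no count in any mouse. Genes and bins were taken by name and not by a cut on measured values, though with earlier results of these data known. Grin3b, the remaining gene of the family, is given beside them.

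RNA came from the striatum of 16 mice aged about 50 days: 8 mice labelled 112kb congenic and 8 littermates labelled B6 wild-type (C57BL/6J), each with 4 females and 4 males. As background, this line carries a stretch of DBA/2J chromosome 11 that includes Hnrnph1, which encodes a splicing regulator. The line is 1 introgression, so the genotype stands for the whole segment and not for a single gene. The labels leave the copy number of the segment unstated. The 3 mm punches of both sides were pooled within a mouse, and each library ran on 3 lanes, which were summed here. The mouse is the replicate, named as in the labels.

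NMDA receptors are glutamate-gated cation channels built from obligatory GluN1 subunits, encoded by Grin1, and GluN2 or GluN3 subunits. GluN1 and GluN3 bind glycine or D-serine, GluN2 binds glutamate, and the GluN2 type sets deactivation speed and magnesium block. In striatal projection neurons, GluN2A and GluN2B are the usual partners of GluN1. Grin1 transcripts are spliced at 3 cassettes: N1 in the extracellular amino-terminal domain, which changes the response to protons and polyamines, and C1 and C2 in the cytoplasmic tail, which carry sites for phosphorylation, retention and export.

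The sequences of these cassettes are shown because the Grin1 results turn on them, read from the NCBIM37 (mm9) genome on the minus strand, 5′ to 3′. N1 is a 63-base coding exon at chr2:25166863-25166925, present in 4 of the 8 annotated coding transcripts. C1 is a 111-base coding exon at chr2:25149958-25150068. C2 is the 356-base stretch of the last exon at chr2:25147649-25148004, coding at its start, that lies between an outer and an inner 3′ splice site. Capitals mark TAGG in C1, GGGG in the intron after it, and the AG of the splice acceptors.
N1 cassette: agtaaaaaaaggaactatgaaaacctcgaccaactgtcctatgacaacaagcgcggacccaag
C1 cassette: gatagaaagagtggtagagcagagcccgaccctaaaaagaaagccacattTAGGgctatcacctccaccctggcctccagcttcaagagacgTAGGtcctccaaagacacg
Intron before C1: cttatacatattcattttAG
Intron after C1: gtaaGGGGaagcaccccagt
Outer acceptor of the last exon: ttgttggttcttatttatAGagcaccgggg
Inner acceptor of the last exon: tgtgtatttctattttacAGcagtaccatc

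C1 is a textbook case of regulated splicing. As background, UAGG motifs in this exon bind hnRNP A1, which represses it, and a GGGG motif at its 5′ splice site binds hnRNP H and hnRNP F, which promote it. The transcribed strand of C1 held TAGG starting at positions 51 and 93, counted from 1 at the 5′ end of the exon. Of 1531 annotated internal exons of 111 bases, 134 (8.75%) held at least 1 TAGG and 6 (0.392%) at least 2, and on the other strand 45 (2.94%) held at least 2. GGGG stood in the first 20 intron bases after 14759 of 177764 internal exons (8.30%), and on the other strand of these windows after 5.56%. At least 2 TAGG together with GGGG occurred in 1 of the 1531, which is C1 itself. These matches describe letters and not binding.

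Depth was alike between mice: gene counts summed to 73.1M to 82.0M per mouse with a median of 77.8M (M, 1e6 counts), and exon counts to 118.5M to 133.2M. The defining genes of projection neurons were high, with Ppp1r1b (DARPP-32) at 1967 CPM (counts scaled to a library of 1e6), the dopamine receptor gene Drd1a at 293 CPM and Drd2 at 222 CPM. Markers of neighbouring tissue were present too: the cortical glutamate transporter gene Slc17a7 had 100 CPM, the thalamic transporter gene Slc17a6 2.42 CPM and the choroid plexus gene Ttr 8.20 CPM. Summed over 16 cortical markers, the level was 352.8 to 636.4 CPM in congenic and 419.2 to 636.8 CPM in wild-type mice. No gene of that list, or of 7 other cell type lists, was at 0. Mouse Sample_4806, labelled female and wild-type, had 2.64 CPM of Xist, the RNA of the inactive X chromosome, against 951 to 1549 CPM in the other 7 labelled females and 1.35 to 17.6 CPM in males. Without it, as with it, 0 members, 0 Grin1 bins and 0 ratios passed by sex, and the values that moved are given beside the results. The marker list values by sex include it.

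Grin1 was by far the most abundant subunit transcript. Levels were compared between genes as CPM per kilobase (kb) of annotated exon, over all 16 mice. Grin1 stood at 81.6 ± 10.6 CPM per kb (SD, n = 16), followed by Grin2c at 17.7 ± 1.56, Grin2b at 13.9 ± 3.05, Grin2a at 6.04 ± 1.02, Grin2d at 2.20 ± 0.186, Grin3b at 1.66 ± 0.168 and Grin3a at 1.59 ± 0.160 CPM per kb. Grin1 was 4.60-fold above Grin2c on average and above it in 16 of 16 mice, with no overlap of their ranges. Grin2b was above Grin2a in 16 of 16 mice, by 1.99- to 2.75-fold, and Grin2a was above Grin2d in 16 of 16.

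Some neighbours in this order lay close together. Grin2c was above Grin2b in 14 of 16 mice, with a mean ratio of levels of 1.30 and a range of 0.922 to 1.98, so the order turned in 2 mice. Grin2d was above Grin3b in 16 of 16 mice, by 1.09- to 1.89-fold, although their ranges over mice overlapped. Grin3b was above Grin3a in 9 of 16 mice only. The annotated exon length of Grin3a, 11.136 kb, includes its bin 13 of 3504 bases. That bin lies in 1 of 3 coding transcripts and held 26 counts over all 16 mice. The level of Grin3a per kb rests on this length, so its place beside Grin2d and Grin3b is not settled by these values. A bulk level does not separate fewer cells of a type from less RNA per cell.

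**Figure D1:**
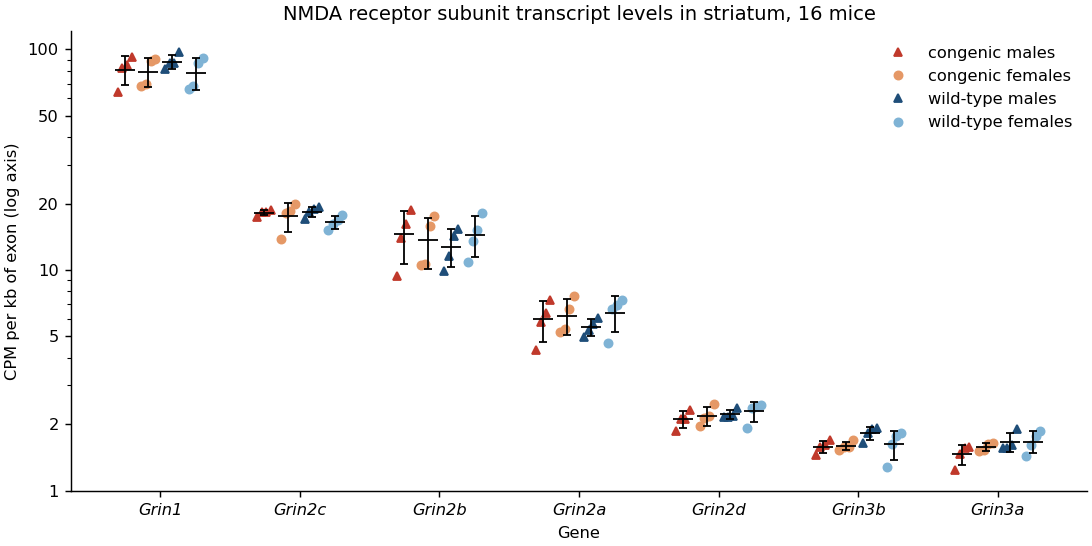
CPM per kb of exon (log axis) for the 7 subunit genes, with 1 point per mouse in 4 groups of 4 mice, and black bars for the group mean and SD. Grin1 lies at 63.8 to 97.2 in all mice, above every GluN2 and GluN3 gene, and within each gene the 4 groups overlap.

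The means of the 6 genes stood in the same order in the exon table, using counts per base of coding bins that no opposite-strand exon touches. The median bin held 21.4 ± 2.73 counts per base in Grin1 (SD, n = 16 mice, 8 bins), 2.59 ± 0.284 in Grin2c (9 bins) and 1.64 ± 0.371 in Grin2b (10 bins). It held 0.728 ± 0.176 in Grin2a (11 bins), 0.282 ± 0.0412 in Grin2d (13 bins) and 0.262 ± 0.0342 in Grin3a (8 bins). Grin2d and Grin3a lay close here, with overlapping ranges over mice of 0.222 to 0.391 and 0.194 to 0.313. Grin3b has no usable value there: its bins 6 to 14 lay under exons of the opposite strand and were at 0. Within the GluN2 genes, Grin2c made up 44.7 ± 4.94% of the summed level per kb (SD, n = 16), Grin2b 34.5 ± 4.46%, Grin2a 15.1 ± 1.41% and Grin2d 5.63 ± 1.01%.

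Grin2b was the subunit that differed most between mice, within both genotypes. Its lowest, median and highest levels were 70.7, 111.5 and 139.5 CPM in congenic mice, and 74.0, 104.5 and 136.4 CPM in wild-type mice. The genotypes covered the same range, and the highest mouse had 1.97 times the lowest. The SD of its log2 CPM was 0.33 over 16 mice, larger than that of 99.4% of 3644 genes at 0.5 to 2 times its level. For Grin2a, which encodes the subunit with the faster deactivation, the lowest, median and highest levels were 20.9, 29.5 and 36.9 CPM in congenic mice and 22.5, 28.4 and 35.5 CPM in wild-type mice. Its spread was above that of 97.7% of genes at like level. Grin1 exceeded 96.8%, Grin2c 84%, Grin3a 77.8% and Grin2d 52.9% of theirs.

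The spread between mice was larger than that between the lanes of a mouse. For Grin2b the SD between lanes of a mouse was 0.043 on the log2 scale and that between mice 0.32. For Grin1 they were 0.023 and 0.18. For the 2 rarest members they were 0.11 between lanes and 0.14 between mice for Grin2d, and 0.11 and 0.15 for Grin3a. The lane values are of single lanes and the mouse values of summed lanes, which carry less lane noise. The SD between lanes therefore overstates the lane noise held in the mouse values.

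Grin1 levels fell into 2 sets of mice. The 5 mice Sample_4673, Sample_4739, Sample_4753, Sample_4804 and Sample_4806 had 279 to 306 CPM, and the other 11 had 355 to 425 CPM. The low set held congenic and wild-type mice and 1 male. The gap made up 35.3% of the whole log2 range of Grin1. In these 5 mice the mean log2 CPM of 38 NMDA receptor partner genes lay -0.06 to -0.03 from the mean over all mice, against -0.01 to 0.04 in the other 11. Of the 11702 genes with at least 5 CPM, 198 had a Pearson correlation above 0.9 with Grin1 over 16 mice, compared with 10 for Grin2a, 8 for Grin2b, 1 for Grin2c and 0 for Grin2d and Grin3a. Those most like Grin1 were Emc1 (r = 0.971), Eftud2 (0.968) and Usp5 (0.962). Over all 11702 genes the median absolute r was 0.44 with Grin1 and 0.226 to 0.268 with the other members. Grin1 thus shared its variation with many genes. Whether it did so more or less with receptor genes than with others was not tested. These likenesses describe shared variation between mice and carry no test.

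Grin2a and Grin2b rose and fell together. Across the 16 mice Pearson's r of their log2 CPM was 0.91 and Spearman's rho 0.859 (permutation p = 1e-05, the smallest that 100000 permutations can give, and adjusted p = 0.00056 over 56 relations). The value was 0.871 without mice Sample_4712 and Sample_4733, the 2 farthest from the median of Grin2b. It was 0.925 in congenic and 0.938 in female mice (adjusted exact permutation p = 0.0417 and 0.0444). In wild-type mice it was 0.89 and in males 0.925, and neither passed (adjusted exact permutation p = 0.0936 and 0.0528). Grin2b levels also showed a gap, between 86.9 and 102 CPM. Below it r was 0.682 in 6 mice (exact permutation p = 0.147) and above it 0.633 in 10 mice (permutation p = 0.0537), so on each side alone the relation did not pass 0.05. Of the 15 pairs of members, this was the 1 pair past the threshold.

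**Figure D2:**
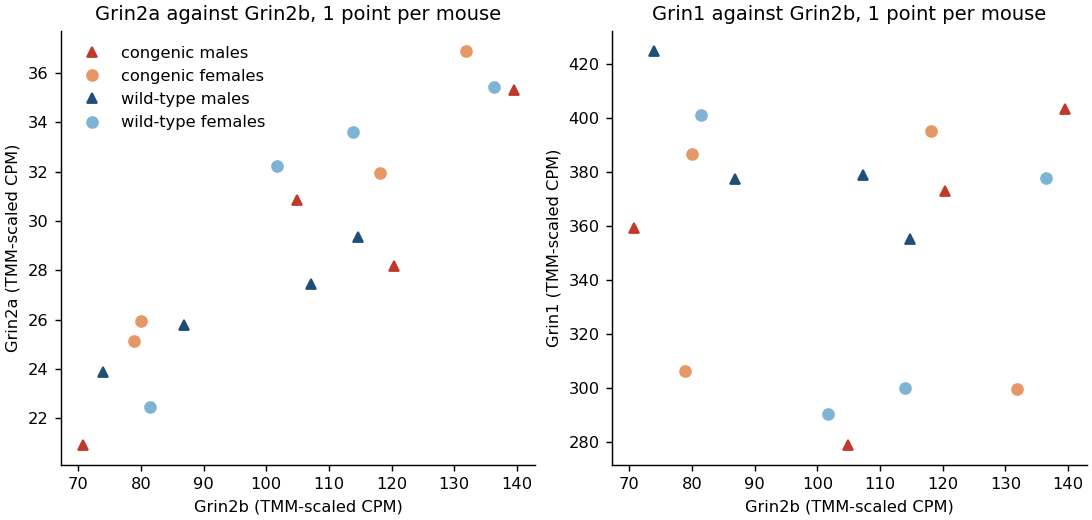
Grin2a (left) and Grin1 (right) against Grin2b, as CPM scaled by edgeR's trimmed mean of M-values, with 1 point per mouse and colours for the 4 groups. Grin2a follows Grin2b in all groups (r = 0.91), while Grin1 splits into 5 mice at 279 to 306 CPM and 11 mice at 355 to 425 CPM at both low and high Grin2b.

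Pairs with Grin1 were weaker. Grin1 had r = -0.143 with Grin2b and -0.359 with Grin2a (adjusted permutation p = 0.758 and 0.417), values pooled over its 2 sets of mice. The ratio of Grin2a to Grin2b, a common measure of receptor maturation, was narrow: 0.442 ± 0.0435 per kb (SD, n = 16), from 0.363 to 0.504. Grin2c to Grin2b varied more, at 1.34 ± 0.333 with a range of 0.922 to 1.98, and Grin2d to Grin2b at 0.168 ± 0.0466 ranged from 0.0996 to 0.246. All GluN2 genes together reached 0.496 ± 0.0916 of the Grin1 level, from 0.372 to 0.687. Grin3a reached 0.0197 ± 0.00266 of it, a value that rests on its annotated exon length.

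Levels of some members also followed marker lists across mice. Each list was scored as the mean log2 CPM of its genes. Grin3a rose with 15 interneuron markers at r = 0.783 (permutation p = 0.0002, adjusted p = 0.0056), with rho = 0.668 (adjusted p = 0.102), and without mice Sample_4673 and Sample_4739 r was 0.634 and no longer passed (adjusted permutation p = 0.165). Within congenic mice r was 0.747 and within wild-type mice 0.734, and neither passed (adjusted exact permutation p = 0.231 and 0.273). In males r was 0.806 and in labelled females 0.908 (adjusted exact permutation p = 0.242 and 0.0444). Grin2d rose with 12 markers of septum, pallidum and thalamus at r = 0.736 (permutation p = 0.00144, adjusted p = 0.0202), with rho = 0.653 (adjusted p = 0.102), and r was 0.742 without mice Sample_4733 and Sample_4753 (adjusted permutation p = 0.0424). Grin2c had negative values against this list, at r = -0.618 and rho = -0.45 over all mice, which did not pass (adjusted permutation p = 0.0647 and 0.327). Its r was -0.753 without the same 2 mice (adjusted permutation p = 0.0424), -0.889 in females (adjusted exact permutation p = 0.0444) and 0.111 in males (0.998). GluN2D is the subunit typical of interneurons and of nuclei outside the striatum. The summed level of these 12 markers ran from 100.3 to 219.3 CPM between mice, and its part in the Grin2d level was not tested. Grin2d had no such relation with the interneuron list past the threshold.

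Grin1 also passed against 20 projection neuron markers and the interneuron list over all mice by Pearson's r (0.775 and 0.674). Spearman's rho did not pass for either (adjusted permutation p = 0.102 and 0.138). Without the 2 mice farthest from the median, r did not pass either (adjusted permutation p = 0.0612 and 0.429). Within the 11 mice of the upper Grin1 set r was 0.447 (permutation p = 0.167) and 0.366 (permutation p = 0.268). No correlation was computed over the 5 lower mice. These sets were split on Grin1 itself, which narrows its range within each. Neither Grin2a nor Grin2b moved with cortical markers past the threshold: r was -0.0557 and -0.137 (adjusted permutation p = 0.868 and 0.758).

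The genes whose levels were most like each member over the 16 mice differed between members. For Grin2b they were Cbl (r = 0.952), Nf1 (0.931) and Arhgef12 (0.93), and those given for Grin2a are Dgkh (0.932) and Gm608 (0.932). For Grin2c they were Utrn (0.907), Fgfr3 (0.891) and Ppp1r12c (0.873). Fgfr3 is an astrocyte marker of the lists. With the whole astrocyte list Grin2c had r = 0.268 (adjusted permutation p = 0.513), and the part of astrocytes in the Grin2c level was not tested. Grin2d was most like Msi1 (0.829), Fzd1 (0.827) and Pmvk (0.824), and Grin3a most like Tbc1d9 (0.853), Zfp512 (0.852) and Cntnap4 (0.846).

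No subunit gene differed between the genotypes. By edgeR's quasi-likelihood test, 0 of 6 members passed an adjusted p of 0.05, as did 0% of the 16716 genes tested. DESeq2 and limma-voom called 0 of 6 too. The log2 fold change of congenic over wild type was -0.05 for Grin1 (95% interval -0.22 to 0.12), 0.03 for Grin2a (-0.19 to 0.26), 0.05 for Grin2b (-0.27 to 0.38), 0.04 for Grin2c (-0.07 to 0.15) and -0.07 for Grin2d (-0.19 to 0.05). The intervals bound what these 16 mice could have missed, which is least for Grin2c and Grin2d and most for Grin2b.

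Grin3a, whose subunit lowers calcium entry through the receptor, had the smallest p. Its lowest, median and highest levels were 13.9, 17.2 and 18.3 CPM in congenic mice and 15.9, 17.98 and 21.2 CPM in wild-type mice. The groups overlapped, with a log2 fold change of -0.13 (SE 0.06, 95% interval -0.25 to -0.01). By genotype the median log2 fold change was -0.24 for the 16 cortical markers, with 3 above 0. It was -0.06 for the 15 interneuron markers, with 3 above 0, and 0 of either list passed in edgeR. Other lists went the other way: oligodendrocyte (0.037), microglia (0.035), septum, pallidum and thalamus (0.025), ependyma and choroid plexus (0.012) and projection neuron (0.004). The astrocyte median was -0.0006. Grin3a had r = 0.625 with the cortical list over 16 mice (adjusted permutation p = 0.0642). The part of cortical and interneuron markers in its level was not tested. The unadjusted edgeR p was 0.047 and the adjusted p 0.999, so the difference did not pass. It was the 1 member below an unadjusted 0.05, a level that 256 genes (1.53%) reached.

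**Figure D3:**
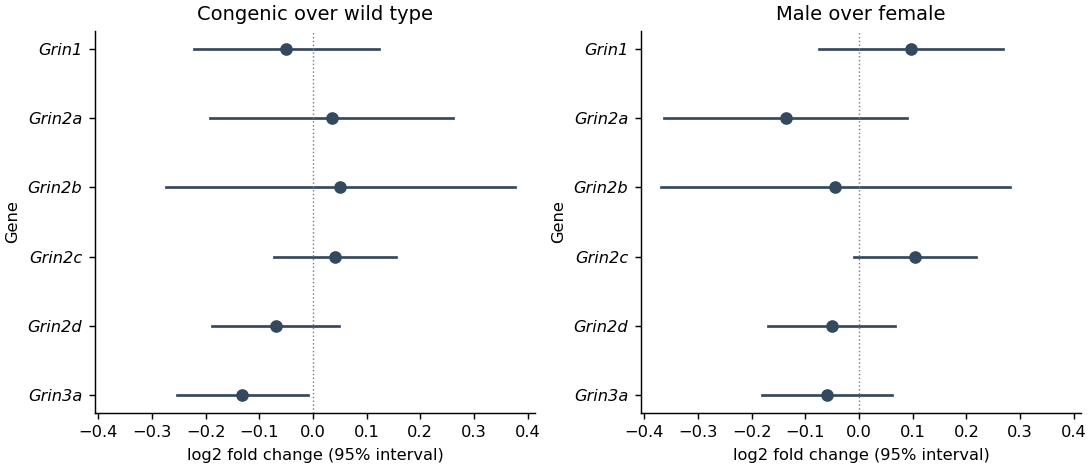
Log2 fold change of the 6 members (points) with its 95% interval (lines) for congenic over wild type (left) and male over female (right), from edgeR. By genotype the interval of Grin3a alone excludes 0, at an adjusted p of 0.999, and by sex all intervals include 0.

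By sex, 0 of 6 members passed either, against 0.138% of genes (23), and 0 were below an unadjusted p of 0.05 in edgeR, where 14.7% of genes were. DESeq2 also called 0 of 6, against 1.72% of the genes it gave an adjusted p (259), and limma-voom 0 of 6 against 0.114% (19). The largest was Grin2a, with a log2 fold change of -0.14 in males (SE 0.12, adjusted p = 0.583 in edgeR), and -0.12 without Sample_4806. For the interaction of genotype and sex, edgeR called 0 of 6 members and 0% of genes, with 0 members below an unadjusted p of 0.05. Of the 5 subunit ratios, 0 differed by genotype (smallest adjusted p = 0.992, exact permutation test over 12870 splits, two-sided) or by sex. Of these the Grin3a to Grin1 ratio had the smallest p by sex, at 0.0185 in males and 0.0207 in females (exact permutation p = 0.0844, adjusted p = 0.422). The ratio of Grin2a to Grin2b was 0.438 in congenic and 0.441 in wild-type mice as geometric means.

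The partners of the receptor showed no called gene. Of 40 listed genes for scaffolds, kinases, transport and co-agonist supply, 38 were tested, and 0 rose or fell by genotype or sex in edgeR. Their median log2 fold change was -0.01 by genotype and 0.03 by sex, against 0.001 and -0.005 for all genes tested. The smallest p by genotype belonged to Dlgap1 (log2 fold change -0.07), Ephb2 (-0.13), Dlgap4 (-0.05) and Slc1a4 (-0.07), all with an edgeR adjusted p of 0.999. By sex it belonged to the scaffold genes Shank2 (0.16 in males, adjusted p = 0.164) and Shank3 (0.13, 0.224), the kinesin gene Kif17 (0.19, 0.17), whose product carries GluN2B along dendrites, and the kinase gene Src (0.11, 0.186). None of them passed.

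The other ionotropic glutamate receptor genes were likewise without a call, 0 of 11 by genotype and 0 of 11 by sex in edgeR. Their median log2 fold change was -0.03 by genotype and -0.01 by sex. By genotype the smallest p were those of the kainate receptor gene Grik3 (-0.08), the AMPA receptor gene Gria1 (-0.05), Grik4 (-0.11) and Grid1 (-0.06), and edgeR's adjusted p was 0.999 for each. By sex they were those of Grik4 (-0.28 in males, adjusted p = 0.211 in edgeR), Gria1 (0.09, 0.361), Grid1 (0.10, 0.384) and Grik5 (0.06, 0.519).

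Of 15 genes for proteins known to act on alternative exons of this kind, 0 passed by genotype or by sex in edgeR. Hnrnph1, which lies in the congenic segment, had 359.9 CPM and a log2 fold change of 0.01 by genotype (SE 0.04, adjusted p = 0.999 in edgeR). Nova1 (0.08), Ptbp2 (0.04), Nova2 (-0.04) and Rbfox2 (0.03) had the smallest p by genotype. By sex they were Ptbp1 (0.09 in males), Hnrnph1 (0.08), Rbfox3 (0.10) and Nova1 (-0.07), with edgeR adjusted p of 0.323 to 0.375.

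The coverage of Grin1 had a hole in its middle. Bins 11 to 19, which hold 1004 bases of exon present in all 8 coding transcripts, had 0 counts in all 16 mice. Each of them lay wholly under exon 4 (chr2:25152101-25154445, NCBIM37) of E130003G02Rik, a gene on the opposite strand. Bins 9 and 10, partly under its exons, had 367 and 366 counts per mouse, against 2311 for bin 31 of similar length. Over the whole table, 1819 of 1820 bins (99.9%) wholly under an opposite-strand exon were at 0, compared with 3.55% of 3039 bins partly under one and 0.357% of 182551 bins free of one. Whether the gene table lost reads in the same way was not tested. Grin3b, with bins 6 to 14 at 0 in the exon table, had 6777 counts in the gene table and 2086 in the exon table. The whole gene held 766311 counts in the exon table, where a read that touches several bins counts in each, and 441892 in the gene table.

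**Figure D4:**
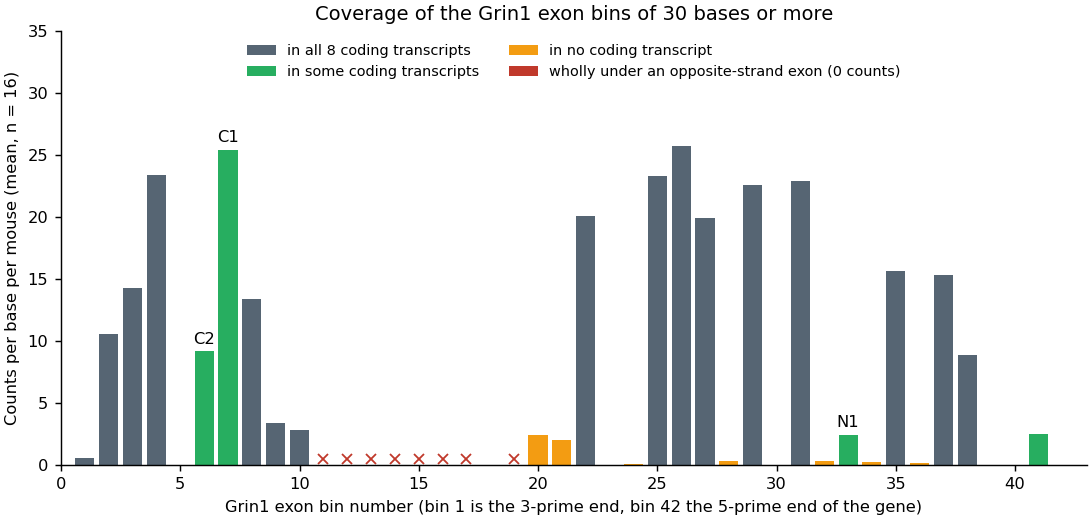
Counts per base per mouse (mean of 16 mice) for the Grin1 exon bins of at least 30 bases, by bin number from the 3′ end (bin 1), coloured by how many coding transcripts hold the bin. Bins 11 to 19 are at 0 (crosses), C1 is above both of its flanks, and N1 stands at 2.44 counts per base.

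The cassettes were measured as an index, the counts per base of the cassette over those of its 2 flanking constitutive bins. It is no inclusion percentage, since reads that cross a border count in both bins, and bin 8, a flank of C1 and C2, is itself covered over 64 of its 146 bases by the opposite-strand gene. C1 had 1.54 ± 0.0465 (SD, n = 16), C2 had 0.553 ± 0.0182 and N1 had 0.133 ± 0.0306. C1 thus had more counts per base than its flanks, and N1 far fewer.

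C1 and C2 hardly varied. C1 ran from 1.48 to 1.63 and C2 from 0.527 to 0.586 over all mice. Their SD between mice was 0.043 and 0.047 on the log2 scale, and that between single lanes of a mouse 0.057 and 0.059. The mouse values come from summed lanes, which carry less lane noise than single lanes. These SDs therefore do not show whether C1 and C2 vary between mice beyond lane noise. N1 ran from 0.0753 to 0.183, 2.43-fold, with an SD of 0.36 between mice and 0.20 between lanes. The N1 bin held 153 counts per mouse, compared with 2824 for C1 and 3263 for C2, so its counting error is the largest.

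None of the cassettes differed by genotype. The geometric mean of the C1 index was 1.54 in both genotypes, and the log2 difference of 0.003 had an SE of 0.022 (exact permutation p = 0.88). C2 was 0.56 in congenic and 0.546 in wild-type mice (log2 difference 0.04, exact permutation p = 0.131, adjusted p = 0.394). N1 was 0.135 and 0.124 (log2 difference 0.13, SE 0.18, exact permutation p = 0.483, adjusted p = 0.724). Of the 33 bins tested by edgeR's diffSpliceDGE, 0 passed by genotype and 0 were below an unadjusted p of 0.05, while 0.000425% of 235478 bins (1 bin) passed. limma's diffSplice called 0 Grin1 bins too.

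The N1 index was lower in males. In males it was 0.143, 0.0753, 0.148 and 0.105 in congenic mice Sample_4671, Sample_4673, Sample_4731 and Sample_4733, and 0.111, 0.114, 0.0842 and 0.125 in wild-type mice Sample_4672, Sample_4712, Sample_4732 and Sample_4734. In females it was 0.14, 0.15, 0.183 and 0.177 in congenic mice Sample_4677, Sample_4737, Sample_4739 and Sample_4804, and 0.131, 0.124, 0.151 and 0.167 in wild-type mice Sample_4676, Sample_4738, Sample_4753 and Sample_4806. The sexes overlapped, but 0 of 8 males lay above the female median. That count takes Sample_4806 as female, as labelled, although its Xist lay in the range of the males. Its N1 index of 0.167 was above the 0.148 of the highest labelled male, so the count rests on its label. The geometric mean was 0.11 in males and 0.152 in females, a log2 difference of -0.46 (SE 0.14, exact permutation p = 0.00497, adjusted p = 0.0149 over 3 cassettes). Without mouse Sample_4806 the difference was -0.44 (adjusted exact permutation p = 0.0322). On lane 4 alone it was -0.35 and did not pass (adjusted exact permutation p = 0.143). C1 did not pass by sex (adjusted exact permutation p = 0.672). C2 did not pass either, at geometric means of 0.56 in males and 0.546 in females (log2 difference 0.04, adjusted exact permutation p = 0.194), although 8 of 8 males lay above the female median. In wild-type mice C2 was 0.554 to 0.571 in males and 0.527 to 0.538 in females, without overlap. The wild-type females include Sample_4806, whose Xist lay in the range of the males, so this separation rests on its label. In congenic mice C2 was 0.54 to 0.571 in males and 0.528 to 0.586 in females. Without congenic mouse Sample_4677 the C2 difference by sex was 0.05 and passed (adjusted exact permutation p = 0.0317).

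**Figure D5:**
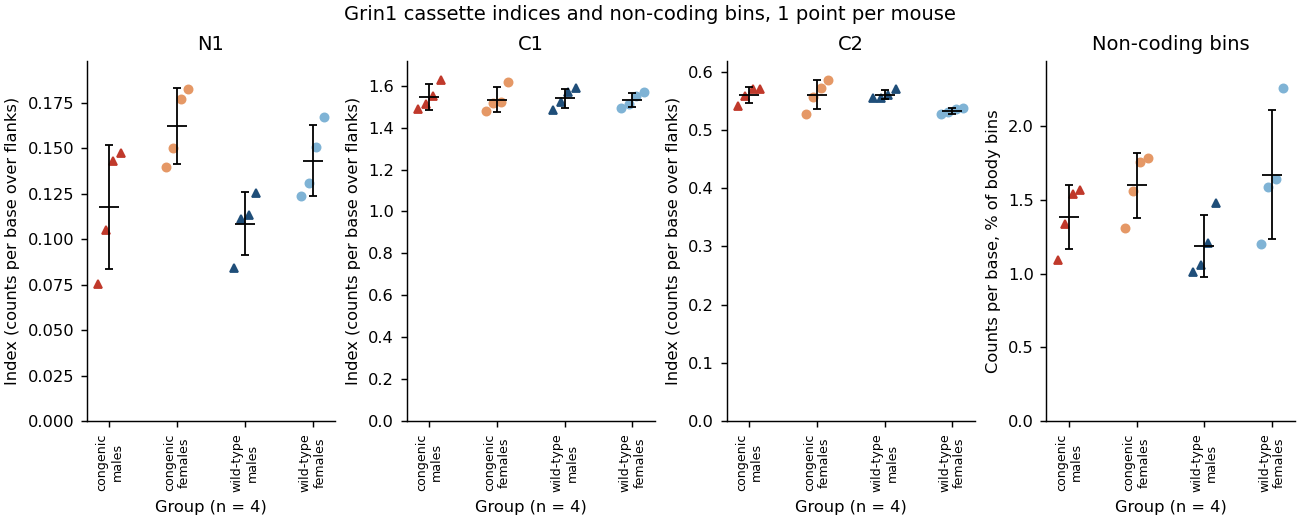
Index of the N1, C1 and C2 cassettes (counts per base over the flanking bins) and counts per base of the bins of no coding transcript as a percentage of the constitutive body bins, with 1 point per mouse, 4 mice per group, and black bars for mean and SD. N1 is lower in males of both genotypes (geometric mean 0.11 against 0.152), as are the non-coding bins, while C1 and C2 are nearly level.

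The bin test did not call N1 across the table. For the N1 bin its log2 fold change was -0.28 in males, with an unadjusted edgeR p of 0.00646 and an adjusted p of 1. In all, 0 of 33 Grin1 bins passed by sex in diffSpliceDGE, against 0.0157% of bins (37), and limma's diffSplice also called 0, against 0.0386% (91). Below an unadjusted 0.05 were 6 Grin1 bins in diffSpliceDGE and 5 in limma. The share of all bins below this level was not computed, so these counts have no background beside them. Of genes, 14.7% were below it by sex in edgeR. All 6 were lower in males: bin 36 (-0.29, p = 0.000895 in edgeR), bin 34 (-0.24, 0.00138), bin 32 (-0.29, 0.00297), bin 21 (-0.26, 0.00309), N1, and bin 20 (-0.20, 0.0284).

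The 5 bins other than N1 belong to no coding transcript. Bins 32 and 34 are the sequence on either side of N1 that coding transcripts splice out, and bin 36 lies between the 2 constitutive exons that precede N1. The counts per base of all 7 such bins were 1.29 ± 0.225% of those of the constitutive body bins in males (SD, n = 8) and 1.64 ± 0.324% in females. None of the 8 males lay above the female median of 1.61%. The log2 difference between males and females was -0.34; it was chosen after the bin values were seen and carries no test. Sample_4806 had the highest value of all mice, 2.26%, and without it the difference was -0.27, with 0 of 8 males above the female median. Bins 32 and 34 together had 11.7 ± 2.83% of the counts per base of N1 (SD, n = 16). With that amount taken off, the N1 difference was -0.47 (adjusted exact permutation p = 0.021). The bins of no coding transcript were unlike in coverage. Bins 20 and 21 held 2.42 and 1.97 counts per base per mouse, near the 2.44 of N1, and bins 32 and 34 held 0.34 and 0.254. Only bins 32 and 34 were subtracted, and the part of such sequence in the N1 difference was not tested.

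Other values moved with sex as well. The median log2 fold change of the 16 cortical markers was -0.36 in males, with 2 of 16 above 0, and their summed level was 352.8 to 636.8 CPM in males and 366.3 to 636.4 CPM in females. All 20 projection neuron markers were above 0 in males, with a median of 0.10. Neither list held a gene past the threshold. N1 and the cortical list had r = 0.489 over all mice (permutation p = 0.0538, adjusted p = 0.215), 0.646 in males, -0.243 in females, 0.485 in congenic and 0.834 in wild-type mice. The ratio of 5′ to 3′ coverage of Grin1 was 1.13 ± 0.116 in males and 1.18 ± 0.0837 in females (SD, n = 8), a log2 difference of -0.07, and -0.08 without Sample_4806. The part of these values in the N1 difference was not tested. Males also have lower numbers in these names, with 6 of the 8 females numbered above every male, so sex and whatever order the numbers follow cannot be told apart.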

How the data were processed

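The authors deposited raw counts per gene and raw counts per exon bin for 48 lane runs, per the file headers and their values. limma (3.22.7), edgeR (3.8.6), HTSeq (0.6.1p1) and FastQC (0.10.1) stand in the submitters' processing notes, without roles. No source used here gives the aligner or the strand setting. Read layout (50 bp single-end or 100 bp paired-end) and build (mm9 or mm10) conflict in the labels. Bins rebuilt from the NCBIM37 annotation had the deposited number of bins for 34842 of 35272 genes, so that build is used. A count may be a read or a mate.

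Lanes were summed per mouse. Genes were tested on counts with edgeR 4.0.16 (quasi-likelihood, TMM, minimum count 10 and total 15, genotype plus sex), with DESeq2 1.42.0 and limma 3.58.1 as alternatives. Bins were tested with edgeR's diffSpliceDGE. Benjamini-Hochberg adjustment ran over all genes or bins tested in these fits, and over the small families of 5 ratios, 3 cassettes and 56 correlations elsewhere. Fitting was tested on simulated data. The 95% intervals use a normal approximation. Ratios and indices were compared on the log2 scale by exact permutation of mice, correlations by 100000 permutations. The mouse was the replicate, so p-values measure the spread between mice.

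Members and lists were chosen with earlier results of these data known. Named genes were the members, Grin3b, Hnrnph1, the 3 genes most like each member (1 of them is not reported here), the 4 of smallest p in each receptor or splicing list, and the cassette bins with the 3 bins of smallest p. Of the Grin1 bins below an unadjusted 0.05, those beyond the rule, the marker genes given with their levels, and Xist were named after their values were seen.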

Additional observations from a re-analysis of the deposited data

Results flagged for a closer look

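In 28 groups of 8 mice (members, ratios and cassettes in each genotype), 2 held a mouse far from the other 7 by Dixon's criterion, which flags about 1 in 20 groups by chance. Congenic mouse Sample_4804 had 69.5 CPM of Grin2c, where the other congenic mice had 88.0 to 100 CPM. Congenic mouse Sample_4673 had 13.9 CPM of Grin3a, where the others had 16.3 to 18.3 CPM, and without it the log2 fold change of Grin3a by genotype was -0.10.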

How the results depend on the processing

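Of 822 recomputed values, 761 kept their direction and their side of the threshold. The number of members and of Grin1 bins called stayed at 0 by genotype and by sex without the low-count filter (genes), with at least 50 counts per bin (bins), in each lane, with other tools and without each mouse. The cassettes called by sex were 1 (N1), 0 on lane 4 alone, and 1 to 2 without single mice, where C2 also passed without congenic mouse Sample_4677 (log2 difference 0.05). Without single mice the N1 difference by sex was -0.52 to -0.38. The number of relations past the threshold was 5 over all mice, 3 without the 2 mice farthest from the median (Grin2a with Grin2b, and Grin2d and Grin2c with the septum, pallidum and thalamus list), 1 within congenic mice, 0 within wild-type mice, 0 within males and 3 within females; the cause was not tested, but each uses fewer mice. The other changes of direction were in differences near 0 that pass under no setting. On lane 3 the log2 difference by genotype was 0.0133 for Grin2a to Grin2b, -0.0147 for Grin2c to Grin2b, -0.00831 for C1 and -0.0195 for C2, and by sex 0.0255 for Grin2d to Grin2b. On lane 4 it was -0.0369 for Grin2a, -0.0179 for Grin2c to Grin2b and -0.0285 for C1 by genotype, and 0.000438 for Grin3a and -0.0309 for C1 by sex. On lane 5 Grin2a to Grin2b was 0.0619 by genotype. With exon-table counts Grin2c to Grin2b was -0.0132 by genotype. With all constitutive coding bins as the denominator C1 was -0.0205 by genotype, and with the last-exon bin alone, an alternative added after the data were seen, -0.00716 by sex. Without single mice the ranges by genotype were -0.0858 to 0.00103 for Grin1, -0.0233 to 0.0879 for Grin2a, -0.0248 to 0.124 for Grin2b, -0.0363 to 0.0310 for Grin2a to Grin2b, -0.0845 to 0.0863 for Grin2c to Grin2b and -0.00809 to 0.0116 for C1. By sex they were -0.12 to 0.0271 for Grin2b, -0.0894 to 0.0977 for Grin2d to Grin2b and -0.00168 to 0.0208 for C1. No paired analysis was possible because the genotypes share no mouse number. Subtracting the bins beside N1 was also added after the data were seen. Depth limits N1 most.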
